A study of Mus musculus with 8 samples.

Results

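The motile cilium genes of ependymal cells were followed in RNA from the mouse prefrontal cortex (PFC). Members were the genes of the deposited table whose symbol starts with *Dnah*, *Dnai*, *Cfap*, *Tekt*, *Rsph*, *Spag* or *Drc* and a digit, together with *Foxj1*. This rule used names and no measured value, and it found 56 of the 15039 genes. RNA was sequenced from 8 libraries of PFC tissue, 4 from Rnf146-overexpressing and 4 from eGFP-overexpressing wild-type C57BL/6NCrljOri males. All mice had received AAV2/1 bilaterally into the PFC at 6 weeks of age and were dissected 4 weeks later. The vector of one group carried mouse *Rnf146* and eGFP (AAV2/1-hsyn-RNF146-eGFP), and that of the other carried eGFP alone (AAV2/1-hsyn-eGFP). In both, the hSyn promoter restricts expression largely to neurons, so the vectors were aimed at neurons and not at ependymal cells. According to the paper, the Rnf146-overexpressing mice used for sequencing were ones found to overexpress the gene and to have social deficits.

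Ependymal cells line the brain ventricles and move cerebrospinal fluid with tufts of motile cilia. The core of a motile cilium, the axoneme, is built of doublet microtubules around a central pair. Dynein arms on the doublets drive the bending, radial spokes and the nexin-dynein regulatory complex control it, and tektins and many CFAP proteins reinforce or tether the doublets. *Foxj1* encodes a transcription factor needed to switch this gene program on, in concert with factors of the RFX family. The cortex itself holds few multiciliated cells, so these genes are weakly represented in cortical tissue.

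The deposited values are log2 expression values, and the means of the 56 members ran from 8.34 to 13.4. The values are not scaled to transcript length, and their order among genes is therefore not read as an order of expression. The authors had centred each gene within the 2 libraries that share a replicate number, and the sum of both values is therefore equal in all 4 pairs. Each gene thus carries 4 independent differences, and a high Rnf146 value in a pair always stands opposite a low eGFP value. The centring also keeps the groups from overlapping whenever all 4 differences of a gene have the same sign, which held for 20.6% of all genes, so a statement below that groups did not overlap repeats the signs and adds nothing to them. Each difference below is an Rnf146 value minus its paired eGFP value. Testing used limma with a block for the replicate number, and genes with an adjusted p of at most 0.1 over the whole table were called.

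Promoters were read for sequence that the rule did not use. RefSeq start-site windows of GRCm38.p6, reaching from 250 bases before to 50 bases after a gene's start, were found for 43 of the 56 members (48 windows). *Cfap418*, *Cfap54*, *Cfap65*, *Cfap91*, *Cfap97*, *Dnai1*, *Dnai2*, *Dnai4*, *Foxj1*, *Rsph1*, *Rsph10b*, *Rsph4a* and *Spag1* had no window. The windows were searched on both strands for GTTGCC, the core of the X-box that RFX factors recognize. Of the member windows, 41.7% held it, against 12.5% of all 32851 windows and 12.6% of the windows of genes in the deposited table. It was not particular to the members. Of the windows of other ciliary genes read below, it stood in 47.8% for the other axoneme genes, 41.2% for intraflagellar transport and the BBSome, 40.7% for multiciliogenesis and 33.3% for dynein docking and assembly. Lists of non-ciliary markers varied. The share was 30.8% of the windows for neuroblasts and progenitors, 30.0% for astrocytes and 27.3% for cortical excitatory neurons. Those lists had 10 to 13 windows each. Shares were lower for oligodendrocytes (16.7% of 12 windows) and striatum (7.14% of 14), and no window for septum and basal forebrain held it. The share for choroid plexus lay between those for oligodendrocytes and cortical excitatory neurons. An inverted repeat, GTTGC followed after 3 bases by GCAAC, stood in 14.6% of the member windows and in 0.225% of all windows. This second pattern was chosen after the sequences had been read, and its GTTGC arm overlaps the X-box core in all but the last letter. It was found in 7 windows of 6 genes, *Dnah6*, *Dnah7a*, *Dnah7b*, *Dnah7c*, *Rsph3b* and *Tekt2*. Overlapping windows of *Tekt2* hold the same site, and *Dnah7a*, *Dnah7b* and *Dnah7c* are related copies, so these windows are not independent. In the other ciliary lists, the repeat stood in 4.76% of the windows for dynein docking and assembly and 4.48% for the other axoneme genes. The share was 2.94% for intraflagellar transport and the BBSome and 0% for multiciliogenesis. A forkhead core, GTAAACA, occurred in 2.08% of the member windows and in 3.65% of all windows. A fixed form of the X-box with both arms, GTTNCC followed after 2 bases by GGNAAC, was found in *Cfap20dc* and *Cfap298*. It stood in 4.17% of the member windows and 0.451% of all, and it was not particular to the members. This form stood in 9.52% of the windows for dynein docking and assembly and 5.88% for intraflagellar transport and the BBSome. The share was 4.55% for cytoplasmic dynein 1 and dynactin, 4.48% for the other axoneme genes and 0% for multiciliogenesis. Forms with other arm letters or spacing were not counted with it.

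The bases before the start are printed for the 6 members with the highest mean differences among those with a window, 5 dynein heavy chains and *Cfap44*. Capitals mark GTTGCC on either strand (GGCAAC on the other) and the inverted repeat. All coordinates of these windows are those of GRCm38.p6.
Dnah6 (chr6:73221632-73221881, minus strand): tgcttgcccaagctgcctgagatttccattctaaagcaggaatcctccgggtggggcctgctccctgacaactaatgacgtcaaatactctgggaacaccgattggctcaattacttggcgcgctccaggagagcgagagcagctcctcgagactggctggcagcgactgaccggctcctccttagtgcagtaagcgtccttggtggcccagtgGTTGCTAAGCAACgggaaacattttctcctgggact
Dnah7b (chr1:46066603-46066852, plus strand): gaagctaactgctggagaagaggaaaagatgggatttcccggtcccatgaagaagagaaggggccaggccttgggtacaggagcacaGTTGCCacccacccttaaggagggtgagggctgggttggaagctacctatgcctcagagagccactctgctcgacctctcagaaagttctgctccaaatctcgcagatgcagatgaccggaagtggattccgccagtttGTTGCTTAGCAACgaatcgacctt
Dnah9 (chr11:66168552-66168801, minus strand): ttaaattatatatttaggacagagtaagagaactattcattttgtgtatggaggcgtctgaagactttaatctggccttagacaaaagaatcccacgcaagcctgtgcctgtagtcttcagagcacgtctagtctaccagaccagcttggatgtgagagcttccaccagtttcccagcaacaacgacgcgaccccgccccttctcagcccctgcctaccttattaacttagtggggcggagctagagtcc
Dnah10 (chr5:124724835-124725084, plus strand): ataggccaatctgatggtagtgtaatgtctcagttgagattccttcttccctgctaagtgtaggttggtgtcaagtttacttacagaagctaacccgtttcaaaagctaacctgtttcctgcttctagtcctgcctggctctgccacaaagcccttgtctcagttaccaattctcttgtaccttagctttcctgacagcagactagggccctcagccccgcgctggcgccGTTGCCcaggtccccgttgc
Dnah1 (chr14:31323897-31324146, minus strand): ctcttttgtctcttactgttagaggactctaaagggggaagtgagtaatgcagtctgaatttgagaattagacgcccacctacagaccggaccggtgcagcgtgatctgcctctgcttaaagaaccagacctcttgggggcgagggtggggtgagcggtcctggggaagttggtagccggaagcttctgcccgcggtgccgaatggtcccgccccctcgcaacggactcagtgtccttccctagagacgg
Cfap44 (chr16:44394549-44394798, plus strand): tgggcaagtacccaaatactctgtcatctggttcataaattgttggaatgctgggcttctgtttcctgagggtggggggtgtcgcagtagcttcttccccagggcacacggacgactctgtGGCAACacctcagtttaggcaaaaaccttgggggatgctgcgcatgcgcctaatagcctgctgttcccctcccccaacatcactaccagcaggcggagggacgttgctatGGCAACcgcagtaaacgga
The inverted repeat stands close to the start of *Dnah7b* and *Dnah6*, a GTTGCC lies near the start of *Dnah10*, and *Cfap44* has a pair of them. The printed stretches of *Dnah9* and *Dnah1* hold none of the patterns. Among the 43 members with a window, the 18 with GTTGCC had a median difference of 0.04 and the 25 without it one of 0.02. *Dnah6*, which holds the inverted repeat and no GTTGCC, is among the 25.

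Rnf146-overexpressing mice showed higher *Foxj1* RNA than eGFP-overexpressing mice, and most of the axoneme genes lay slightly above 0. *Foxj1* and *Dnai2*, which encodes an intermediate chain of the outer dynein arm, were the only members called, and both rose. They are 2 of 56 members, or 3.57%, while 1.25% of all genes were called (0.818% higher and 0.432% lower). The mean difference was above 0 for 40 of the 56 members (71.4%, against 50.5% of all genes). In all 4 pairs, 15 members were higher (26.8%, against 10.4% of all genes) and 1 was lower (1.79%, against 10.2%). The calls changed when a pair was left out. Without pair 1, *Dnah6*, *Dnai2* and *Foxj1* were called, and 2.8% of all genes were. Without pair 2 the call of *Foxj1* was left, with 0.279% of all genes called. Without pair 3 the called members were *Dnah7b* and *Dnah9*, both higher, and *Spag5*, which was lower, and not *Foxj1* or *Dnai2*, with 1.12% of all genes called. Without pair 4 limma called 0 members and 0.0931% of all genes. In bulk tissue, more cells of a type and more RNA per cell cannot be told apart.

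**Figure D1:**
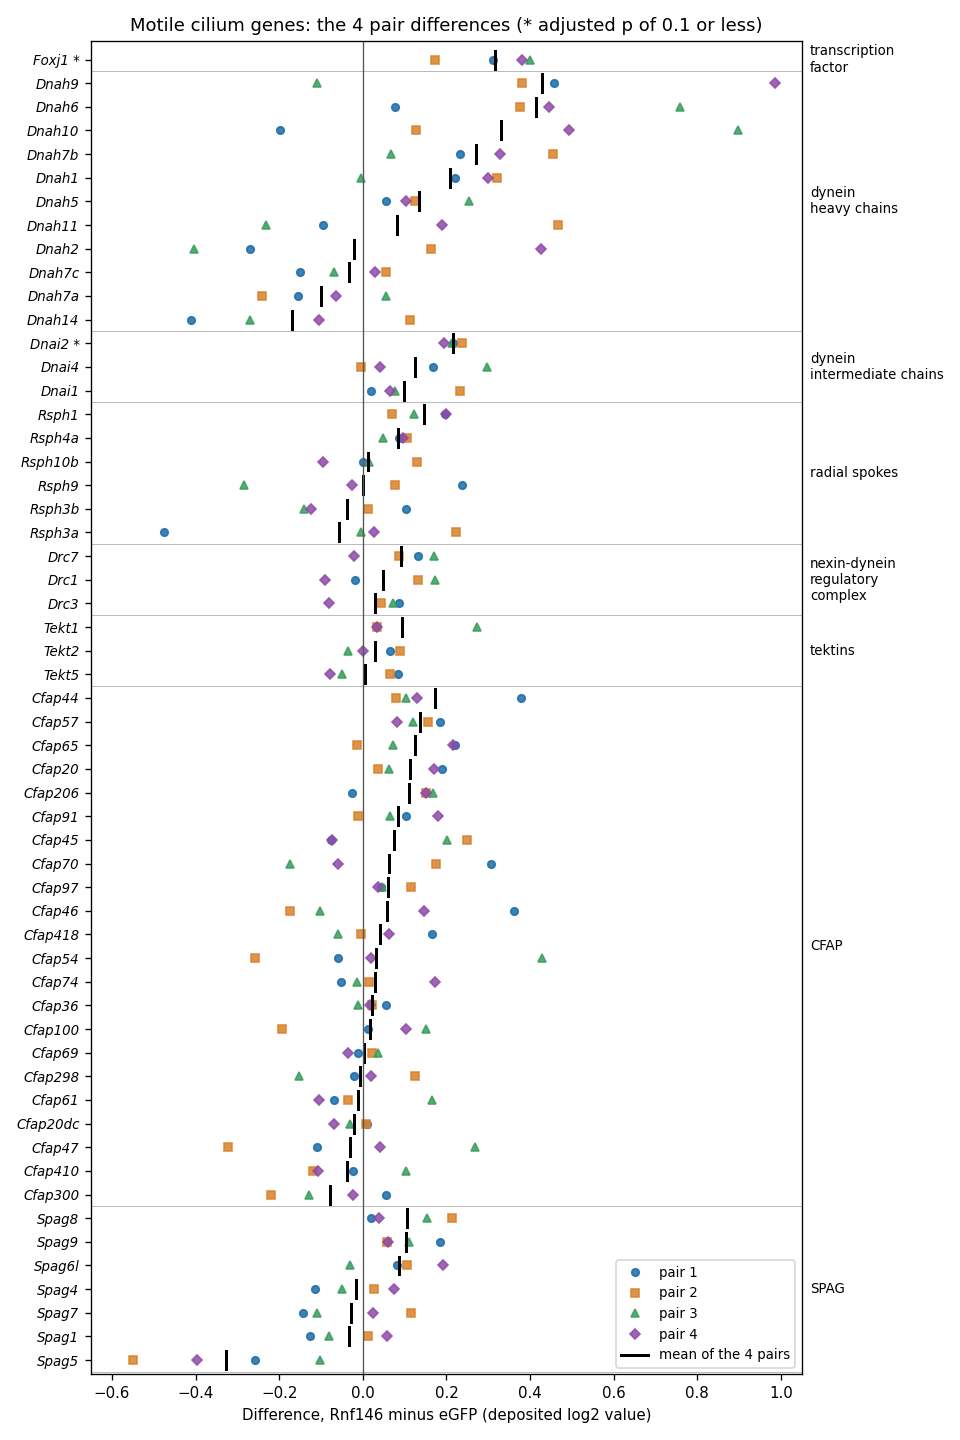
The 4 pair differences of each of the 56 members, with the Rnf146 minus eGFP difference in deposited log2 values on the x axis and the genes grouped by role on the y axis. Symbols are pairs, black bars are means of the 4 pairs and asterisks mark the called genes *Foxj1* and *Dnai2*, and the bars of 40 members lie to the right of 0.

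Over the 56 members, the median difference was 0.05, with quartiles at -0.01 and 0.11, and it was 0.0009 over all genes. The differences ran from -0.33 for *Spag5* to 0.43 for *Dnah9*. Averaged over the members, the 4 pairs gave 0.04, 0.07, 0.06 and 0.09, which is 0.06 ± 0.02 (SD, n = 4 pairs). The members' mean value lay between 9.22 and 9.24 in the eGFP libraries and between 9.28 and 9.31 in the Rnf146 libraries. Single genes varied more, and the SD of a member's 4 differences had a median of 0.11. At an unadjusted p under 0.05, 12 members were higher, against 6.45% of all genes, and 1 was lower. The median stayed above 0 under each alternative scaling, and the number of members with a mean above 0 was 36 after quantile normalization.

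The lowest value in the table was 7.86, and a log2 scale with such a floor compresses changes near the floor. How the scale was made is not given in the sources used here. The values were therefore also expanded to the log2 of a count with the inverse of a variance-stabilizing curve, whose floor had to be assumed. With floors of 7.5 and 7.7, the median difference of the members became 0.09 and 0.10 and their mean 0.14 and 0.17. The same members, *Foxj1* and *Dnai2*, were called on both expanded scales.

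**Figure D2:**
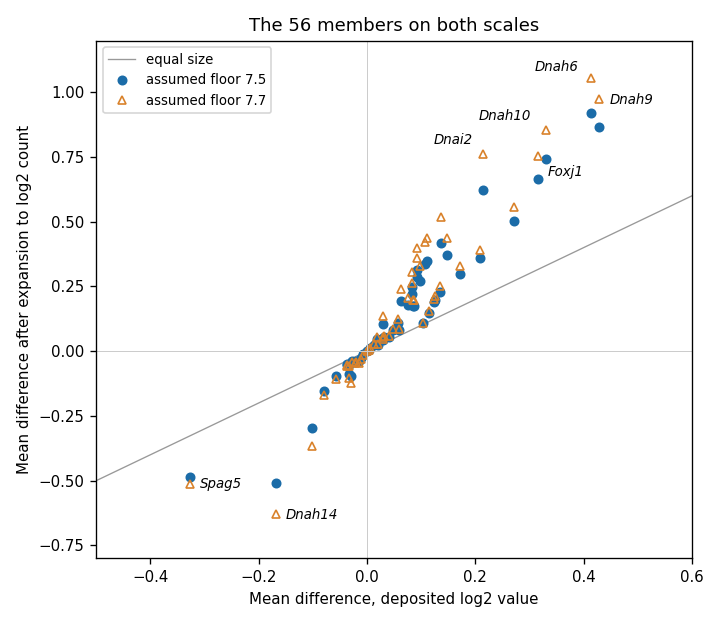
Mean difference of the 56 members on the deposited log2 scale (x axis) against the mean difference after expansion to log2 counts (y axis), with assumed floors of 7.5 (filled circles) and 7.7 (open triangles); the grey line marks equal size. Members with low deposited values, such as *Dnai2* and *Dnah6*, lie far from the line, *Dnai2* at 0.22 against 0.62 and 0.76.

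*Foxj1* (chromosome 11 of GRCm39, 116221530 to 116226225, minus strand) overlaps no other gene of GENCODE vM39. Its value was 8.84, 8.91, 8.80 and 8.81 in the eGFP libraries and 9.15, 9.08, 9.20 and 9.19 in the Rnf146 libraries. The Rnf146 value was the higher one in each pair, as for 10.4% of all genes. The differences of 0.31, 0.17, 0.40 and 0.38 gave a mean of 0.32 ± 0.10 (SD, n = 4 pairs), where limma gave an adjusted p of 0.049. On the expanded scales this was a log2 fold change of 0.67 or 0.75, which is 1.59-fold or 1.69-fold. When pairs were left out singly, the difference stayed between 0.29 and 0.36, and the adjusted p rose to 0.123 without pair 3 and to 0.272 without pair 4.

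**Figure D3:**
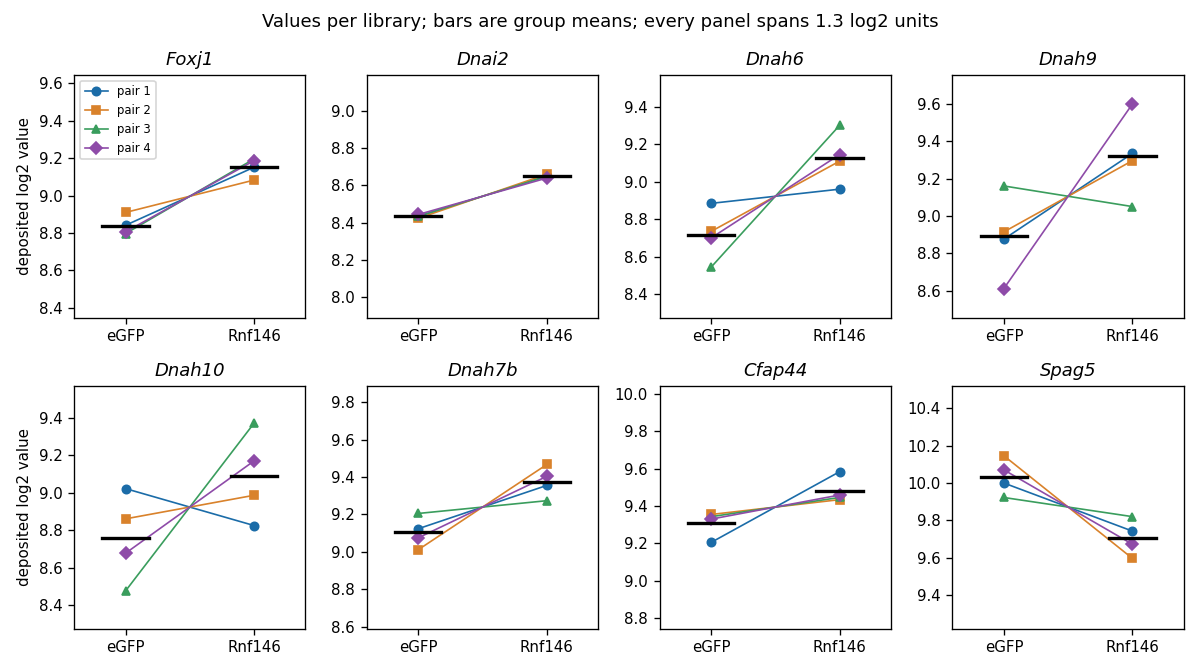
Deposited log2 values (y axis) of 8 members in the 4 eGFP and the 4 Rnf146 libraries (x axis), with lines joining same-numbered libraries and black bars at the group means. The mirror symmetry comes from the centring within pairs, the groups separate in *Foxj1*, *Dnai2*, *Dnah6*, *Dnah7b*, *Cfap44* and *Spag5*, and 1 pair runs against the other 3 in *Dnah9* and in *Dnah10*.

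Dynein heavy chains are the motors of the arms. Of the 11 measured, 7 had a mean difference above 0 (63.6%, against 50.5% of all genes). In all 4 pairs, 3 were higher (27.3%, against 10.4%) and none was lower (against 10.2%). None was called with the replicate block (against 1.25% of all genes). At an unadjusted p under 0.05, 5 were higher (against 6.45% of all genes) and none was lower. Their mean was -0.02, 0.21, 0.09 and 0.29 in the 4 pairs, or 0.14 ± 0.14 (SD, n = 4 pairs). This role group held the members with the 3 highest means and, with *Dnah14* and *Dnah7a*, the members with the next lowest means after *Spag5*.

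*Dnah9*, an outer-arm heavy chain (chromosome 11 of GRCm39, 65722108 to 66059377), had 8.88, 8.92, 9.16 and 8.61 in the eGFP libraries and 9.33, 9.30, 9.05 and 9.60 in the Rnf146 libraries. It was higher in pairs 1, 2 and 4 and lower in pair 3, so the groups overlapped. The mean difference of 0.43 ± 0.45 (SD, n = 4 pairs) did not exceed the spread between the pairs, with an adjusted p of 0.267 from limma. Without pair 3 the adjusted p was 0.093. *Dnah6*, an inner-arm heavy chain whose promoter carries the inverted repeat shown above, lies on chromosome 6 of GRCm39 (72994589 to 73199178). Its values were 8.88, 8.73, 8.54 and 8.70 in the eGFP libraries and 8.96, 9.11, 9.30 and 9.15 in the Rnf146 libraries, and the groups did not overlap. The difference was small in pair 1, at 0.08, and 0.38, 0.76 and 0.45 in the others, giving a mean of 0.41 ± 0.28 (SD, n = 4 pairs), where limma gave an adjusted p of 0.121. Without pair 1, its adjusted p was 0.028. Both *Dnah6* and *Dnah9* overlap a non-coding gene on their own strand in GENCODE vM39.

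*Dnah10*, an inner-arm heavy chain, had values of 9.02, 8.86, 8.48 and 8.68 in the eGFP libraries and 8.83, 8.99, 9.37 and 9.17 in the Rnf146 libraries. It was lower in pair 1, and the mean difference of 0.33 ± 0.47 (SD, n = 4 pairs) fell short of the spread (adjusted p = 0.411 from limma, 0.115 without pair 1). The pair differences of *Dnah10*, -0.20, 0.13, 0.90 and 0.49, and those of *Dnah6* above may be set beside the mean differences of 12 oligodendrocyte markers, which were -0.12, 0.44, 0.89 and 0.53. Without pair 1, all 12 of these markers were called, as *Dnah6* was. The part of that tissue difference in the values of *Dnah6* and *Dnah10* was not tested. *Dnah1*, an inner-arm heavy chain, was higher in 3 pairs, at 0.22, 0.32, -0.004 and 0.30, with an adjusted p of 0.223. *Dnah14* had differences of -0.41, 0.11, -0.27 and -0.11 and a mean of -0.17 ± 0.23 (SD, n = 4 pairs), again within the spread.

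The *Dnah7* genes are 3 copies on chromosome 1 that encode inner-arm heavy chains. *Dnah7b* (46105475 to 46412710 of GRCm39, plus strand) had 9.12, 9.01, 9.21 and 9.07 in the eGFP libraries and 9.36, 9.47, 9.27 and 9.40 in the Rnf146 libraries, without overlap. Its mean difference was 0.27 ± 0.16 (SD, n = 4 pairs), where limma gave an adjusted p of 0.142, 0.013 if the block is dropped and 0.092 without pair 3. *Dnah7a* and *Dnah7c* had means of -0.10 ± 0.13 and -0.03 ± 0.10 over the same pairs. Of all 100-base words in the longest transcript of *Dnah7b*, 12.2% occur unchanged in *Dnah7a* and 17.1% in *Dnah7c*, so part of the reads could not be assigned to 1 copy by sequence, and the split among the copies is uncertain. Their promoters share GTTGCC and the inverted repeat, and their differences had different signs.

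Intermediate chains anchor the arms to the doublets. All 3 that were measured had a mean above 0, with a mean over the group of 0.13, 0.16, 0.20 and 0.10 in the 4 pairs. *Dnai2* (chromosome 11 of GRCm39, 114614535 to 114648715, plus strand) overlaps no other annotated gene. Its values were 8.43, 8.42, 8.43 and 8.44 in the eGFP libraries and 8.65, 8.66, 8.65 and 8.64 in the Rnf146 libraries. The difference was nearly the same in every pair, 0.22 ± 0.02 (SD, n = 4 pairs), where limma gave an adjusted p of 0.070. On the expanded scales this was 1.54-fold or 1.70-fold. The call was lost without pair 2, 3 or 4, when the adjusted p lay between 0.142 and 0.287, and the difference stayed between 0.21 and 0.22. *Dnai1*, its partner in the outer arm, differed by 0.02, 0.23, 0.08 and 0.07 and was not called (adjusted p = 0.455). *Dnai4*, an inner-arm chain, had 0.13 ± 0.14 (SD, n = 4 pairs) and was chosen after its values were seen.

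Radial spokes connect the doublets with the central pair. Of the 6 genes, 4 had a mean above 0 (66.7%, against 50.5% of all genes) and none was called. *Rsph1*, which encodes a spoke-head protein, was higher in all 4 pairs, by 0.20, 0.07, 0.12 and 0.20, averaging 0.15 ± 0.06 (SD, n = 4 pairs), where limma gave an adjusted p of 0.231. *Rsph3a* and *Rsph3b*, which encode stalk proteins, had means of -0.06 and -0.04. The mean of *Rsph3a* rested on pair 1, at -0.48, and was 0.08 without it. Of its 100-base words, 63.8% occur unchanged in *Rsph3b*, and the values of both are uncertain for this reason. The remaining spoke genes lay between 0.0003 and 0.08.

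Genes of the nexin-dynein regulatory complex, *Drc1*, *Drc3* and *Drc7*, had means of 0.05, 0.03 and 0.09. All 3 were higher in 2 or 3 pairs and lower in pair 4, and none was called (adjusted p between 0.463 and 0.864). The tektins *Tekt1*, *Tekt2* and *Tekt5*, filament proteins of the doublet wall, had means of 0.09, 0.03 and 0.01. *Tekt5*, at 9.08 in both group means, turned to -0.0079 after quantile normalization, and the difference of *Tekt1* was 0.27 in pair 3 against 0.03 in each of the others.

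CFAP genes were the largest role group, with 22 members. Means were above 0 for 16 of them (72.7%, against 50.5% of all genes). In all 4 pairs, 4 were higher (18.2%, against 10.4% of all genes) and none was lower, and none was called. Their group mean was 0.07, -0.01, 0.06 and 0.05 in the pairs, or 0.04 ± 0.04 (SD, n = 4 pairs). *Cfap44*, a protein of the axoneme that is needed for sperm flagella, had the highest mean. Its values were 9.21, 9.35, 9.34 and 9.33 in the eGFP libraries and 9.58, 9.43, 9.45 and 9.46 in the Rnf146 libraries, which did not overlap. The mean difference was 0.17 ± 0.14 (SD, n = 4 pairs), where limma gave an adjusted p of 0.295. *Cfap57* was chosen after its values were seen because its spread was small. It differed by 0.19, 0.16, 0.12 and 0.08, with a mean of 0.14 ± 0.04 and an adjusted p of 0.230. The lowest of the group was *Cfap300*, an assembly factor of dynein arms, at -0.08 ± 0.12, and *Cfap410*, a basal body and primary cilium gene, had -0.04 ± 0.10.

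SPAG genes share a name that reflects their discovery in sperm, and 3 of the 7 are used outside motile cilia. *Spag5*, which encodes astrin, a protein of the mitotic spindle and no part of the axoneme, was the only member lower in all 4 pairs. Its values were 10.0003, 10.15, 9.92 and 10.07 in the eGFP libraries and 9.74, 9.60, 9.82 and 9.67 in the Rnf146 libraries. The groups did not overlap, and the mean difference was -0.33 ± 0.19 (SD, n = 4 pairs), where limma gave an adjusted p of 0.114, 0.011 if the block is dropped and 0.077 without pair 3. *Spag8* was the highest of the group at 0.11 ± 0.09, and *Spag1*, an assembly factor of dynein arms, had -0.03 ± 0.08.

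Without the replicate block, which takes the centred values for independent libraries, 22 of the 56 members were called (39.3%, against 21.5% of all genes), 21 higher and 1 lower. By role these were 5 heavy chains, 3 intermediate chains, 2 spoke genes, 1 regulatory-complex gene, 7 CFAP genes, 3 SPAG genes and *Foxj1*. Outside motile cilia, 8 members have known uses (*Spag5*, *Spag7*, *Spag9*, *Cfap20*, *Cfap36*, *Cfap97*, *Cfap410* and *Cfap418*). Without these 8, the other 48 members had a median difference of 0.06 and a mean of 0.08 ± 0.03 (SD, n = 4 pairs). Both called genes are among the 48.

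Lists of other ciliary genes were read beside the members. Of the other axoneme genes, 41 of 82 listed symbols had values, 34 of these had a mean above 0 and 4 were called (9.76%, against 1.25% of all genes), all higher. *Ccdc40*, part of the ruler that spaces the arms along the doublet, differed by 0.34, 0.37, 0.28 and 0.17, a mean of 0.29 ± 0.09 (SD, n = 4 pairs), where limma gave an adjusted p of 0.049. *Iqcg*, a subunit of the nexin-dynein regulatory complex, had 0.28 ± 0.08 with an adjusted p of 0.058. *Catip*, a ciliogenesis gene, and *Ccdc187* had 0.30 ± 0.11 and 0.64 ± 0.26, with adjusted p-values of 0.056 and 0.024. The median of the 41 genes was 0.08. Without pair 4 none of the 4 genes kept its call, with adjusted p-values of 0.15 to 0.286, and without pair 2 the call of *Ccdc187* alone held, at 0.075. Without pair 3, *Ccdc40* and *Iqcg* lost their calls, with adjusted p-values of 0.109 and 0.137.

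Of the genes for dynein docking and assembly, 21 of 37 symbols had values and 1 was called (4.76%, against 1.25% of all genes). This was *Efcab1*, which encodes calaxin of the outer arm, at 0.29 ± 0.06 (SD, n = 4 pairs), where limma gave an adjusted p of 0.042. *Odad1*, a docking-complex gene, was higher in all 4 pairs at 0.18 ± 0.15 and was not called, and the median of the list was 0.02. *Efcab1* lost its call without pair 2 or pair 4 (adjusted p = 0.174 and 0.245). Of 19 genes for multiciliogenesis and basal bodies other than *Foxj1*, 0 were called by limma with the block. At an unadjusted p under 0.05, 5 were higher (against 6.45% of all genes), and 8 were called without the block (42.1%, against 21.5%). The median was 0.05, and *Sass6*, a centriole assembly gene, had the highest mean, 0.18 ± 0.11. *Rfx2* and *Rfx3*, chosen after their values were seen as the RFX factors of multiciliated cells, had 0.08 ± 0.07 and -0.03 ± 0.24.

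Intraflagellar transport and the BBSome serve primary as well as motile cilia. Of 40 of their genes, 0 were called with the block, 3 were higher and 1 was lower at an unadjusted p under 0.05, and 9 were called without the block (22.5%, against 21.5% of all genes). Their median was 0.01, and the highest means were 0.17 ± 0.07 for *Bbs5* and 0.14 ± 0.05 for *Ttc8* (SD, n = 4 pairs), both BBSome genes. Cytoplasmic dynein 1 and dynactin, which carry cargo in neurons, had 25 genes with a median of -0.003. Of these 25, 0 were called with the block, 0 had an unadjusted p under 0.05 and 3 were called without the block. *Dynlt1a* had the largest absolute mean, -0.11 ± 0.10, followed by *Pafah1b1* at 0.09 ± 0.09.

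**Figure D4:**
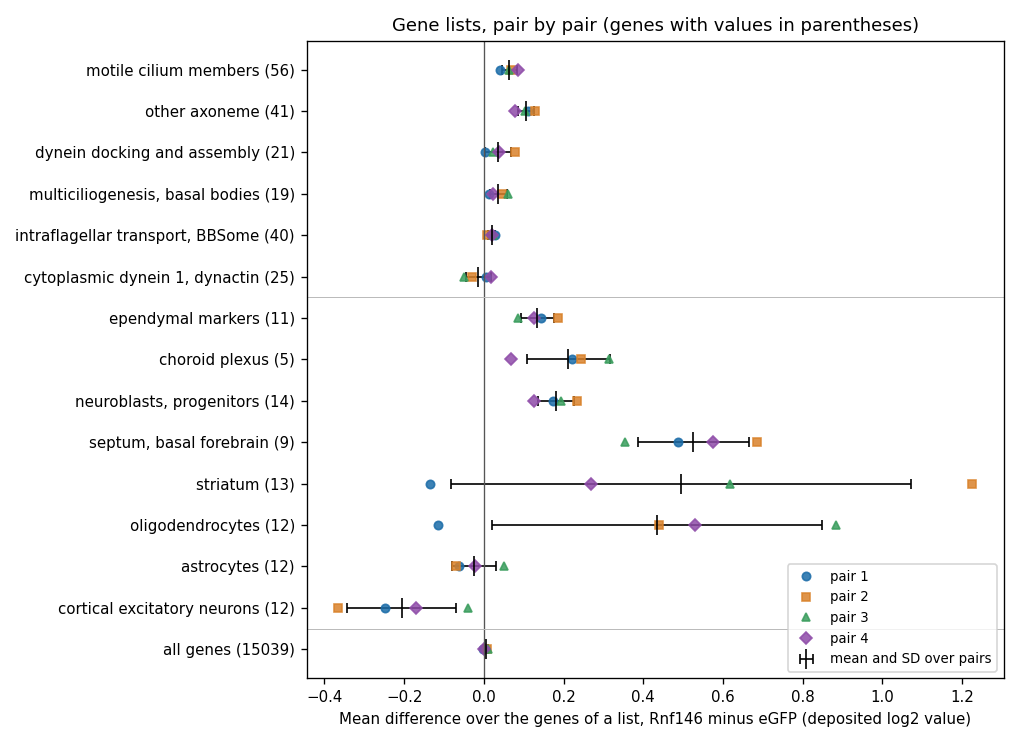
Mean difference (Rnf146 minus eGFP, deposited log2 values, x axis) over the genes of each list in the 4 pairs, with the mean and SD over pairs in black and the number of genes with values in parentheses. The members lie just above 0 in all 4 pairs. So do the other axoneme, dynein docking and assembly, multiciliogenesis and intraflagellar transport lists, some of them no further from 0 than all genes. All genes had means of -0.0028, 0.0087, 0.0104 and 0.0014 in the 4 pairs. The intraflagellar transport list had 0.0078 in pair 2, and the dynein docking and assembly list had 0.0023 in pair 1. The means of the ependymal, choroid plexus and neuroblast lists are also above 0 in all 4 pairs. For choroid plexus in pair 4, the mean is 0.07 but the median over its 5 genes is -0.05. The lists of septum, striatum and oligodendrocytes lie further away or vary more.

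The label of the members was compared with other markers of ependymal cells. Of 22 listed symbols outside the naming rule, 11 had values, and the defining markers *Tmem212* and *Ccdc153* were among the symbols without values. Means were above 0 for 10 of the 11 genes (90.9%, against 50.5% of all genes). In all 4 pairs 6 were higher (54.5%, against 10.4%), and 1 was called (9.09%, against 1.25%). *Rarres2*, which encodes chemerin, had differences of 0.21, 0.32, 0.56 and 0.30, a mean of 0.35 ± 0.15 (SD, n = 4 pairs), where limma gave an adjusted p of 0.063, which was above 0.1 without pair 2, 3 or 4. *Gm973* and *Pltp*, a phospholipid transfer protein, followed with 0.19 ± 0.10 and 0.17 ± 0.10 and were not called. The mean of the 11 genes was 0.14, 0.19, 0.09 and 0.12 in the 4 pairs, and their mean level was 9.20 to 9.25 in the eGFP libraries and 9.34 to 9.39 in the Rnf146 libraries. Of these 11 genes, 4 also stand in the ciliary lists above. Whether the 11 genes are specific to ependymal cells in this tissue was not tested.

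Several lists of markers of other cells and regions also lay above 0. Over all genes, 1.25% were called with the block, 21.5% were called without it and 12.4% had an unadjusted p under 0.05. All 9 septum and basal forebrain genes with values, of 14 listed, were called and higher, and their mean level was 9.23 to 9.40 in the eGFP libraries and 9.75 to 9.92 in the Rnf146 libraries. Of 14 genes of neuroblasts and progenitors, 4 were called and higher (*Dlx1*, *Dlx6*, *Cd24a* and *Sp9*), with mean levels of 9.52 to 9.58 and 9.70 to 9.76. Of the choroid plexus genes, 5 of 16 had values, with mean levels of 9.23 to 9.35 and 9.42 to 9.54. *Clic6* was called, at 0.54 ± 0.05. *Prlr*, *Enpp2*, *Lbp* and *Kl* were not called and had means of 0.36, 0.19, 0.02 and -0.04. In pair 4 the 5 genes had a mean of 0.07 and a median of -0.05. Only 2 of them were higher in that pair, with *Clic6* at 0.61. The defining marker of this tissue, *Ttr*, was among the symbols without values. The striatum genes averaged -0.14, 1.23, 0.62 and 0.27 in the 4 pairs, with mean levels of 10.1 to 10.8 and 10.6 to 11.3, and 0 of 13 were called with the block, 10 had an unadjusted p under 0.05 and 5 were called without it. The 12 oligodendrocyte genes had mean levels of 11.4 to 11.9 and 11.8 to 12.3, with 0 called with the block, 12 at an unadjusted p under 0.05 and 12 called without it. Cortical excitatory neuron genes were lower, with 2 of 12 called and mean levels of 11.6 to 11.8 and 11.4 to 11.6, and astrocyte genes had a median of -0.02, with 0 of 12 called with the block, 1 at an unadjusted p under 0.05 and 2 called without it. Without pair 4, the only marker called in these lists was *Clic6*, and without pair 1 all 12 oligodendrocyte and 7 striatum genes were called. The part of these tissue differences in the values of *Foxj1*, *Dnai2* and the other members was not tested.

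*Rnf146* itself was higher in each Rnf146 library, with pair differences of 2.82, 2.51, 2.66 and 2.58. Of the 15039 genes, 188 were called, 123 higher and 65 lower, and the count was 421 without pair 1, 42 without pair 2 and 14 without pair 4. Reads from the vector and from the mouse's own *Rnf146* share 1 symbol in the table. The depth of the libraries is unknown, since the table holds no read totals. The labels do not say for each library that it came from a mouse of its own, and p-values measure only the spread between these pairs, which may be technical.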

How the data were processed

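RNA was measured in 8 libraries of PFC tissue, 4 from Rnf146-overexpressing and 4 from eGFP-overexpressing mice. The libraries were grouped and numbered by their titles. The authors trimmed reads with Cutadapt, quantified transcripts with Salmon 1.9.0 against GENCODE vM30 (GRCm39) and, per the submitters' processing notes, used DESeq2. The table they deposited is called normalized counts but holds log2 values from 7.86 to 18.8, centred within same-numbered pairs (largest spread of pair sums 1.4e-13). The transformation and the centring are not given in the sources used here. No counts were available to a count test, and each of the 8 columns was matched to a sample by name.

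The log2 values were modelled by limma 3.58.1 (R 4.3.3, eBayes with trend) as group plus a block for the replicate number, using Benjamini-Hochberg adjustment over 15039 genes, after the fit had been tested on simulated data. The pairing comes from the numbers in the labels and from the centring, which fixes the deviations of same-numbered libraries to be equal and opposite. The block leaves 3 residual degrees of freedom, against 6 without it. Members, lists and alternatives were chosen with earlier results of these data known. Genes named are *Foxj1*, called members, the 8 highest and 8 lowest means, and the highest and lowest of each role group. Named as well are called genes and the 2 largest absolute means of each ciliary or cytoplasmic dynein list, and 3 ependymal markers. Alternatives were no block, an adjusted p of 0.05, a minimum mean value of 8.5, median centring, quantile normalization, untrended and robust variances, expanded values with assumed floors of 7.5 and 7.7, members without 8 genes used outside motile cilia, and each pair left out. Gene coordinates are from GENCODE vM39 (GRCm39), and promoter windows are RefSeq sequences of GRCm38.p6.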

Additional observations from a re-analysis of the deposited data

Results flagged for a closer look

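In 4 of the 56 members, 1 of the 4 pair differences stood apart from the other 3 by Dixon's 95% criterion (a gap that takes up most of the range), where chance flags about 1 in 20 groups. *Cfap206* differed by -0.027 in pair 1 and by 0.15 to 0.17 in the other pairs. *Cfap44* differed by 0.38 in pair 1 and by 0.08 to 0.13 in the others. The difference of *Cfap97* was 0.12 in pair 2 against 0.04 to 0.05, and that of *Tekt1* was 0.27 in pair 3 against 0.03. Among the other genes named, *Pafah1b1* differed by 0.24 in pair 1 and by 0.04 to 0.05 in the other pairs.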

How the results depend on the processing

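*Foxj1* and *Dnai2* were the members called with a minimum mean value of 8.5, median centring, quantile normalization, untrended or robust variances, and both expanded scales. Without the replicate block, 3226 of all genes and 22 members were called, in place of 188 and 2. Of the other ciliary and the cytoplasmic dynein lists, 40 genes were called in place of 5, and of the marker lists 54 in place of 17. At an adjusted p of 0.05 the counts were 80, 1, 3 and 8. With each pair left out in turn they ran from 14 to 421, from 0 to 3, from 0 to 8 and from 1 to 34. Each of these counts was highest without pair 1 (the members' count also without pair 3) and lowest without pair 4. The median difference of the members was 0.05, and it was 0.037 with a minimum mean value of 8.5, which removed 8 members, 0.0936 and 0.0978 on the expanded scales, and 0.0476 to 0.0653 with a pair left out. Their mean of 0.06 became 0.143 and 0.166 on the expanded scales, which stretch low values by construction, and 0.0572 to 0.072 with a pair left out. *Foxj1* had a difference of 0.29 to 0.36 with a pair left out. *Tekt5*, at 0.01, had -0.0079 after quantile normalization and -0.021 to 0.033 with a pair left out, and *Rsph3a*, at -0.06, had -0.15 to 0.082. The cause was not tested. Of 36 single genes named, 18 that were not called with the replicate block were called without it. The depth of the libraries is unknown.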
